A study of Mus musculus with 21 samples.

Results

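The genes described here encode the receptor chains of the common gamma chain cytokine family: Il2ra, Il2rb, Il2rg, Il4ra, Il7r, Il9r, Il15ra and Il21r. They were chosen by name, as the chains that bind interleukins 2, 4, 7, 9, 15 and 21, and make up 8 of the 51201 genes in the deposited tables. The rule itself uses no measured value. All 8 passed the filter on low counts in CD4 and in CD8 cells.

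The source was spleen T cells from mice of strain C57BL/6J, taken at postnatal day 35 and read out by polyA RNA sequencing. Mice labelled L-gp130fl/+;CD4Cre+/- carried 1 copy of a conditional L-gp130 allele, a constitutively active form of gp130, the signal chain of the interleukin-6 receptor family. Their Cre recombinase came from the Cd4 promoter, which is active in developing T cells of both lineages. Controls were CD4Cre+/- mice, so every animal carried the Cre transgene and the groups differed in the L-gp130 allele. CD4+ cells were taken by positive and CD8+ cells by negative magnetic selection. There were 6 L-gp130 CD4 libraries (4 labelled male and 2 female), 6 control CD4 libraries (1 male, 5 female), 3 L-gp130 CD8 libraries (2 male, 1 female) and 6 control CD8 libraries (4 male, 2 female). The titles number the mice within each group.

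Receptors of this family share Il2rg, the common gamma chain, which binds the kinase JAK3. Each cytokine adds chains of its own, which bind JAK1: Il4ra, Il7r, Il9r and Il21r pair with Il2rg directly, and Il2rb joins Il2rg in the receptors for interleukin-2 and interleukin-15, where Il2ra and Il15ra raise the affinity. Interleukin-2, 7, 9 and 15 signal mainly through STAT5, interleukin-4 through STAT6 and interleukin-21 through STAT3. In T cells, Il7r is a hallmark of naive and memory cells and is lowered after activation, whereas Il2ra is raised by activation and stands high on regulatory T cells.

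In GRCm38, Il2ra lies at chr2:11642807-11693193 and its neighbour Il15ra at chr2:11705290-11734317, both on the plus strand. Il4ra at chr7:125552120-125579474 and Il21r at chr7:125603429-125633570 are also plus-strand neighbours. Il2rb lies at chr15:78479256-78495271, Il7r at chr15:9505788-9530176, Il9r at chr11:32187541-32200279 and Il2rg at chrX:101264378-101268255, all on the minus strand. The libraries were unstranded, so reads from overlapping genes cannot be told apart. Gm44876, antisense to Il4ra, reached at most 0.173 CPM (counts scaled to a common library size) and Gm20489, which overlaps Il2rg, at most 0.153 CPM. Gm37881 lies within Il2ra on the same strand, and its level was not analysed here.

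Promoter sequence is shown for the 3 members with the largest fold changes in either cell type, to set the letters beside the values that follow. RefSeq (GRCm38.p6) held 8 promoters for 7 of the 8 genes, and the 250 bases before each start were searched on both strands for TTCNNNGAA (the spacing most STAT proteins bind), the same letters with 1 more N in the middle (a spacing bound by STAT6), TGANTCA (the AP-1 motif) and the NF-kB consensus. The first 3 motifs are their own reverse complements, so a match counts for both strands. Capitals mark the matches, and each sequence reads 5′ to 3′ on the gene's strand. Il7r is at chr15:9529877-9530040 on the minus strand and is cut where an exon of a noncoding Il7r transcript begins, Il2ra at chr2:11642542-11642791 on the plus strand, and Il9r at chr11:32200280-32200529 on the minus strand.
Il7r: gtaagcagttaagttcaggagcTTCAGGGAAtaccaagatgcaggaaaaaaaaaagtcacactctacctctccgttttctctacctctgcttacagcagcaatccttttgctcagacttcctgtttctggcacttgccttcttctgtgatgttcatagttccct
Il2ra: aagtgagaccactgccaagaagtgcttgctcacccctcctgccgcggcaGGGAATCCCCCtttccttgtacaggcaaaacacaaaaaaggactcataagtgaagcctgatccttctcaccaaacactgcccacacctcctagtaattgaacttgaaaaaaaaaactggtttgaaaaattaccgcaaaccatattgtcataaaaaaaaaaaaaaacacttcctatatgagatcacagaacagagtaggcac
Il9r: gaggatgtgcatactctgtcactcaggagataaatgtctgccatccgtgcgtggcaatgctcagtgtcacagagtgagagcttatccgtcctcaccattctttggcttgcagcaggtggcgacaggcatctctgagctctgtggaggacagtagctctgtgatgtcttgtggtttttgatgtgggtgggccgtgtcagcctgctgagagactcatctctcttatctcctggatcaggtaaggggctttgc
Il2rb had no promoter in the RefSeq set used and was not searched. Among the 8 promoters searched, that of Il7r held the only TTCNNNGAA match, 142 bases before the start. That motif occurred in 7.02% of the 32851 promoters in the table. The Il2ra promoter held the NF-kB consensus on both strands, as overlapping matches, a motif found in 3.90% of promoters. The form with 1 more N was in 0 of the 8 promoters searched and in 5.85% of all promoters, and TGANTCA in a second Il15ra promoter and in 6.75% of all. These are matches of letters, and factor binding was not measured.

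Depth went with genotype in CD4 cells, with estimated counts of 17781085 to 21226510 in L-gp130 and 27855757 to 35869208 in control libraries. It ranged from 17217364 to 19476881 over the CD8 libraries. Reads matched the labelled sex in 20 of 21 libraries (control CD4 replicate 5 did not). L-gp130 CD4 replicate 1 stood apart: the summed level of 8 naive T cell markers was 2262 CPM there and 4044 to 5028 CPM in the other L-gp130 CD4 libraries, and that of 8 myeloid markers 1570 against 381 to 608 CPM. Its summed effector and memory (1807 CPM), NK cell (223 CPM) and CD8 lineage markers (128 CPM) were also the highest of the CD4 libraries. The summed CD4 lineage markers stood at 702 to 1145 CPM in CD4 and 27.5 to 49.8 CPM in CD8 libraries, and Cd8a with Cd8b1 at 29.2 to 128 and 1338 to 2367 CPM, as the labels say. Erythroid markers were high in the CD4 libraries of both genotypes (4748 CPM or more). Control CD8 replicates 1 to 3 and 4 to 6 separated on the second principal component. Results that change without these libraries are given with both values.

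In control cells, the shared chain was the most abundant member per transcript length. Il2rg stood at 571 ± 37.3 TPM (reads scaled for transcript length and library size, SD, n = 6) in CD4 and 497 ± 38.9 TPM (n = 6) in CD8 cells, and its lowest library lay above the highest library of every other member. Il7r came next in both, at 239 ± 43.1 and 298 ± 72.5 TPM. In control CD4 cells Il21r (144 TPM), Il2rb (139 TPM) and Il4ra (116 TPM) followed with overlapping ranges, then Il2ra (28.7 TPM), and last Il9r (8.57 TPM) and Il15ra (8.30 TPM), whose ranges overlapped. In control CD8 cells the order below Il7r was Il2rb (201 TPM), Il21r (109 TPM), Il4ra (64.6 TPM), Il15ra (8.88 TPM), Il2ra (2.44 TPM) and Il9r (0.764 TPM), where Il2ra and Il9r overlapped and no other neighbours did.

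**Figure D1:**
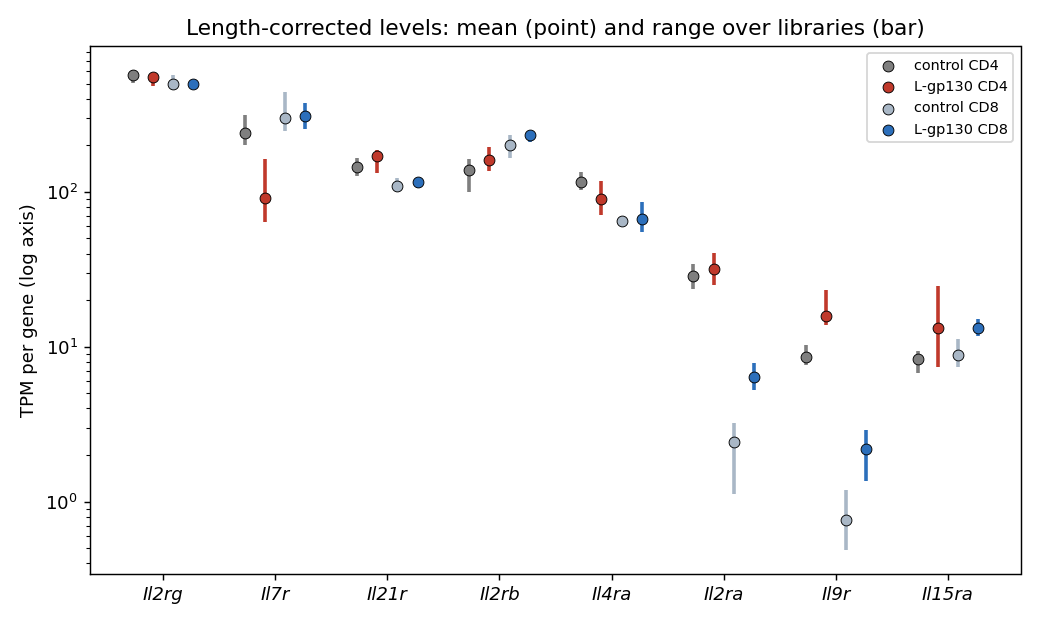
Length-corrected level (TPM, log axis) of each receptor chain gene in the 4 groups, as the group mean (point) and the range over libraries (bar). Il2rg was highest in every group, and Il7r in L-gp130 CD4 cells (91.1 TPM) sat below its level in the other 3 groups (means of 239 to 307 TPM).

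L-gp130 CD8 cells kept the control order of all 8 members. In L-gp130 CD4 cells Il7r went from the second to a lower place, at 91.1 ± 37.3 TPM (n = 6), behind Il21r (170 TPM) and Il2rb (160 TPM) and level with Il4ra (89.7 TPM). Neighbouring ranges in that stretch overlapped, from Il21r through Il2rb and Il7r to Il4ra. Il2ra (31.8 TPM), Il9r (15.9 TPM) and Il15ra (13.3 TPM) kept their places at the bottom.

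The control groups of both cell types differed in 4 of the 8 members by edgeR, 3 higher and 1 lower in CD4 cells, where 51.4% of all genes tested differed (24.3% higher, 27.2% lower). Il2ra was 10.5-fold higher in control CD4 cells (log2 difference in CPM 3.39 ± 0.16 SE, edgeR adjusted p = 2.73e-12), at 69.7 against 6.37 CPM in the joint fit. Il9r was 9.71-fold higher (3.28 ± 0.16, edgeR adjusted p = 2.73e-12), and Il4ra 1.36-fold higher (0.45 ± 0.12, edgeR adjusted p = 0.00328). Il2rb was 2.16-fold lower in CD4 cells (-1.11 ± 0.12, edgeR adjusted p = 1.56e-07). Il7r did not pass (-0.46 ± 0.19, edgeR adjusted p = 0.0523), and Il2rg (95% interval of the log2 difference -0.21 to 0.03), Il15ra (-0.66 to 0.35) and Il21r (-0.15 to 0.19) did not either. The selection method goes with the cell type and cannot be told apart from it. All 10 B cell markers and all 10 regulatory T cell markers were also higher in the CD4 libraries. Of 8 NK cell markers 7 were lower and 0 higher there. Of 8 dendritic cell markers 7 were higher and 1 lower, of 8 myeloid markers 5 and 1, and of 8 erythroid markers 6 and 0. The part of such cells in these differences was not tested.

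L-gp130 CD4 cells had less Il7r and more Il9r than control CD4 cells, with no overlap between the groups, and less Il4ra, with overlap. The other 5 members, including the shared chain, did not pass the test. By edgeR with the labelled sex as covariate, 1 member was higher and 2 were lower, against 11.1% and 7.75% of the 15016 genes tested (18.9% in all). The median log2 fold change was 0.28 over the 8 members and -0.01 over all genes. The samples are whole selected populations, so fewer cells of a type and less RNA per cell cannot be told apart.

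**Figure D2:**
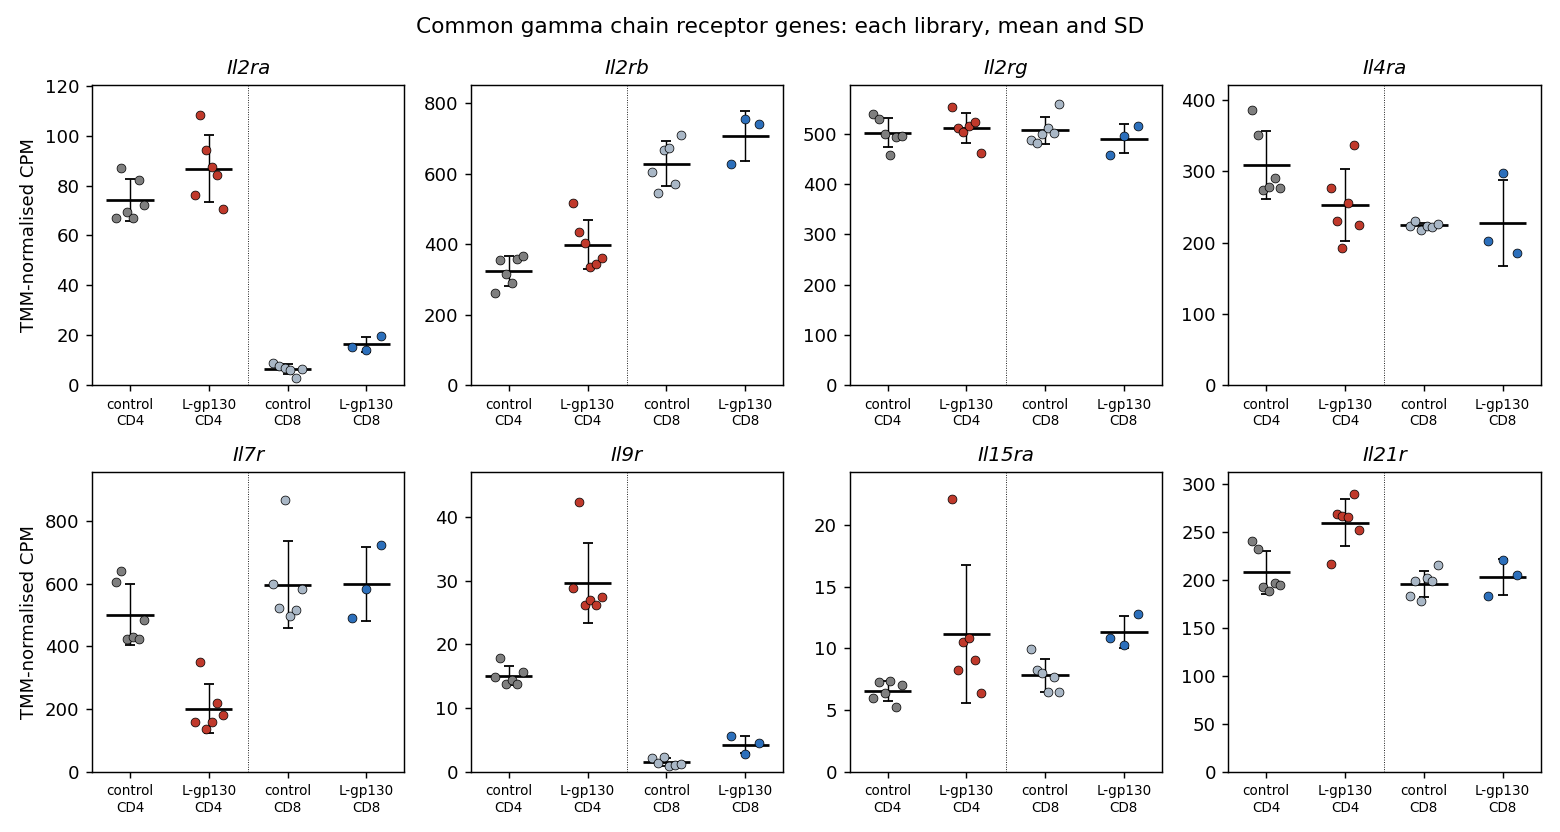
TMM-normalised CPM of each member in every library (points), with the group mean (bar) and SD (whiskers), for control and L-gp130 cells, with CD4 and CD8 tables normalised separately. Il7r separated the CD4 groups (137 to 350 against 423 to 639 CPM) and Il2ra the CD8 groups (13.9 to 19.7 against 2.94 to 8.67 CPM), while Il2rg lay between 458 and 559 CPM in all 21 libraries.

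Il7r, the interleukin-7 receptor chain that carries survival signals to resting T cells, was measured at 137 to 350 CPM in L-gp130 CD4 libraries (median 170) and 423 to 639 CPM in control CD4 libraries (median 456). The groups did not overlap. Il7r and Il9r were the 2 of 8 members without overlap in CD4 cells, against 13.5% of genes tested (5.85% lower, 7.68% higher). L-gp130 replicate 2 was the highest of its group at 350 CPM, and control replicates 1 and 2 were the highest of theirs at 605 and 639 CPM. The mean was 500 ± 97.6 CPM in control and 201 ± 78.5 CPM in L-gp130 libraries (SD, n = 6 each). The fit with sex put Il7r 2.34-fold lower (log2 fold change -1.23 ± 0.23 SE, edgeR adjusted p = 0.00436). The call was lost without control CD4 replicate 1, the only control labelled male (Il7r log2 fold change -0.85, edgeR adjusted p = 0.0741). It was also lost in the labelled females alone (-0.86, edgeR adjusted p = 0.0971) and in the females by reads alone (-0.89, edgeR adjusted p = 0.124). Without that library and without the sex covariate, the Il7r value was -1.26 (edgeR adjusted p = 0.00275). Labelled sex and genotype are partly confounded in the CD4 groups, with 4 of 6 against 1 of 6 males.

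Il9r, the interleukin-9 receptor chain, stood at 26.2 to 42.4 CPM in L-gp130 CD4 libraries (median 27.2) and at 13.8 to 17.9 CPM in control libraries (median 14.7). Every L-gp130 library lay above every control library, with replicate 2 set apart at the top. The mean was 29.7 ± 6.31 against 15.1 ± 1.54 CPM. The fit with sex put the rise at 2.12-fold (log2 fold change 1.08 ± 0.13 SE, edgeR adjusted p = 0.000122). Without L-gp130 replicate 2 the log2 fold change was 0.86 (edgeR adjusted p = 0.000452), and Il9r passed the test in all 26 alternatives run in CD4 cells.

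Il4ra, the chain shared by the interleukin-4 and interleukin-13 receptors, ranged from 193 to 337 CPM in L-gp130 CD4 libraries (median 242) and from 274 to 386 CPM in control libraries (median 284). The groups overlapped, since L-gp130 replicates 1 and 5 (276 and 337 CPM) lay within the control range. The mean was 253 ± 50.2 against 309 ± 47.5 CPM, and the fit with sex put it lower by -0.43 ± 0.13 on the log2 scale (edgeR adjusted p = 0.0362). This call depended on the covariate and on single libraries: without the sex covariate the Il4ra value was -0.29 (edgeR adjusted p = 0.113). With the sex read from the libraries it was -0.36 (edgeR adjusted p = 0.0632). Without both L-gp130 replicate 1 and control replicate 5 it was -0.44 (edgeR adjusted p = 0.0520). The call was also lost when any of L-gp130 replicates 2 and 6 and control replicates 1, 2 and 5 was left out, with edgeR adjusted p between 0.0513 and 0.191.

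Il2rg, the shared chain, stood at 463 to 554 CPM in L-gp130 CD4 libraries (median 513) and at 458 to 539 CPM in control libraries (median 498). The ranges coincided almost fully. Its log2 fold change was -0.03 ± 0.06 (95% interval -0.16 to 0.10, edgeR adjusted p = 0.769).

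Il21r, the interleukin-21 receptor chain, measured 217 to 290 CPM in L-gp130 CD4 libraries (median 266) and 189 to 241 CPM in control libraries (median 196). Only L-gp130 replicate 1, the library that stood apart, lay among the controls. The log2 fold change was 0.28 ± 0.09 (95% interval 0.08 to 0.48), just outside the threshold (edgeR adjusted p = 0.0548). It was called higher in other settings. Without that library Il21r stood at 0.31 (edgeR adjusted p = 0.00909), and without control replicate 2 also at 0.31 (edgeR adjusted p = 0.0406). With all libraries kept, Il21r was called without the sex covariate (0.32, edgeR adjusted p = 0.0114), with the sex read from the libraries (0.30, edgeR adjusted p = 0.0281) and by DESeq2 (0.28, adjusted p = 0.0309).

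Il2rb, the signal chain for interleukin-2 and interleukin-15, measured 335 to 515 CPM in L-gp130 CD4 libraries (median 381) and 260 to 365 CPM in control libraries (median 335). The groups overlapped and replicate 1 held the top L-gp130 value. Its log2 fold change of 0.37 ± 0.14 did not pass (edgeR adjusted p = 0.0760), but did without that library (Il2rb 0.32, edgeR adjusted p = 0.0276) and by DESeq2 with all libraries (0.37, adjusted p = 0.0399).

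Il2ra and Il15ra, the high-affinity chains, also overlapped between the CD4 groups. Il2ra measured 70.7 to 108 CPM against 66.9 to 87.0 CPM (log2 fold change 0.28 ± 0.12, 95% interval 0.02 to 0.54, edgeR adjusted p = 0.120), and was called higher on Salmon reads summed per gene (0.36, edgeR adjusted p = 0.0409) and without L-gp130 replicate 6 (0.43, edgeR adjusted p = 0.0279). Il15ra measured 6.38 to 22.1 CPM against 5.25 to 7.37 CPM (0.48 ± 0.29, 95% interval -0.15 to 1.12, edgeR adjusted p = 0.270). The 22.1 CPM came from L-gp130 replicate 1, and the next library stood at 10.9 CPM. Without the sex covariate Il15ra was called higher (0.78, edgeR adjusted p = 0.0327), and without control replicate 1 its value was 0.13 (edgeR adjusted p = 0.808).

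Markers of other cell states moved in the same CD4 comparison, where 11.1% of all genes tested were higher and 7.75% lower. Of 8 naive T cell markers 3 were lower (Ccr7 and Dapl1 among them) and none higher, with summed levels of 2262 to 5028 CPM in L-gp130 and 4691 to 5515 CPM in control libraries. Of 8 effector and memory markers 5 were higher, at 912 to 1807 against 599 to 706 CPM. Of 10 regulatory T cell markers 5 were higher and none lower, at 629 to 1111 against 478 to 652 CPM, although Foxp3 itself did not pass (58.1 to 117 against 60.1 to 97.2 CPM, edgeR adjusted p = 0.268). Of 10 B cell markers 5 were lower, at 266 to 683 against 289 to 1060 CPM, and none of 8 myeloid markers was called. Of 5 plasma cell markers tested 3 were higher (Jchain, Xbp1 and Derl3), with summed levels of 170 to 274 against 98.9 to 145 CPM and no overlap. Of 8 dendritic cell markers 3 were lower (Siglech, Ly6d and Ccr9), at 105 to 248 against 205 to 246 CPM. Of the 3 CD4 lineage markers Cd40lg and Zbtb7b were lower, with summed levels of 702 to 1043 against 953 to 1145 CPM. No marker list named here had a member at 0 in every library. Their part in the receptor values was not tested.

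L-gp130 CD8 cells had more Il2ra, Il9r and Il15ra than control CD8 cells, and Il7r did not pass the test. By edgeR 3 of the 8 members were higher and 0 lower, against 10.5% of the 14254 genes tested in each direction (21% in all). At an unadjusted p under 0.05, edgeR also had 0 members lower, and DESeq2 and limma-voom called 0 lower. The median log2 fold change was 0.11 over the members and -0.01 over all genes. With 3 L-gp130 libraries, several of these calls rested on single libraries.

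Il2ra stood at 15.4, 13.9 and 19.7 CPM in the 3 L-gp130 CD8 libraries and at 2.94 to 8.67 CPM in the 6 controls (median 6.64). The groups did not overlap, which in CD8 cells held for 3 of the 8 members and for 24.1% of genes tested (11.7% higher, 12.4% lower). The mean was 16.3 ± 3.02 against 6.42 ± 1.95 CPM. The fit with sex put the rise at 2.52-fold (log2 fold change 1.33 ± 0.26 SE, edgeR adjusted p = 0.00549). Leaving out any 1 library kept the call, with Il2ra values of 1.19 to 1.46, whereas the labelled males alone gave 1.20 (edgeR adjusted p = 0.0599). In the joint fit over both cell types, the L-gp130 CD8 libraries held 16.1 to 19.3 CPM of Il2ra, below every CD4 library (62.6 CPM or more).

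Il9r stood at 5.55, 2.79 and 4.46 CPM in L-gp130 CD8 libraries and at 0.984 to 2.33 CPM in controls. The groups did not overlap, though replicate 2 came close to the top control. The mean was 4.27 ± 1.39 against 1.55 ± 0.579 CPM, a 2.76-fold rise (log2 fold change 1.47 ± 0.34 SE, edgeR adjusted p = 0.0124). The call was lost without L-gp130 replicate 1 (Il9r 1.12, edgeR adjusted p = 0.0984), without replicate 3 (1.55, edgeR adjusted p = 0.0529) and without control replicates 4 to 6 (1.13, edgeR adjusted p = 0.0600).

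Il15ra stood at 10.9, 10.3 and 12.8 CPM in L-gp130 CD8 libraries and at 6.45 to 9.97 CPM in controls (median 7.85). The groups did not overlap, but control replicate 1 lay next to the L-gp130 values. The rise was 1.45-fold (log2 fold change 0.53 ± 0.17 SE, edgeR adjusted p = 0.0463), and it was lost in 8 of the 9 fits that left out a library (Il15ra edgeR adjusted p 0.0642 to 0.261) and without control replicates 4 to 6 (0.37, edgeR adjusted p = 0.181).

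Il7r stood at 489, 583 and 724 CPM in L-gp130 CD8 libraries and at 495 to 865 CPM in controls (median 552). The ranges overlapped almost fully, and control replicate 3 was the highest library. The log2 fold change of Il7r was 0.01 ± 0.12 (95% interval -0.25 to 0.26, edgeR adjusted p = 0.982). Il2rg, Il4ra, Il2rb and Il21r did not pass either. Their 95% intervals of the log2 fold change were -0.18 to 0.08 for Il2rg, -0.24 to 0.28 for Il4ra, -0.01 to 0.35 for Il2rb and -0.13 to 0.23 for Il21r.

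**Figure D3:**
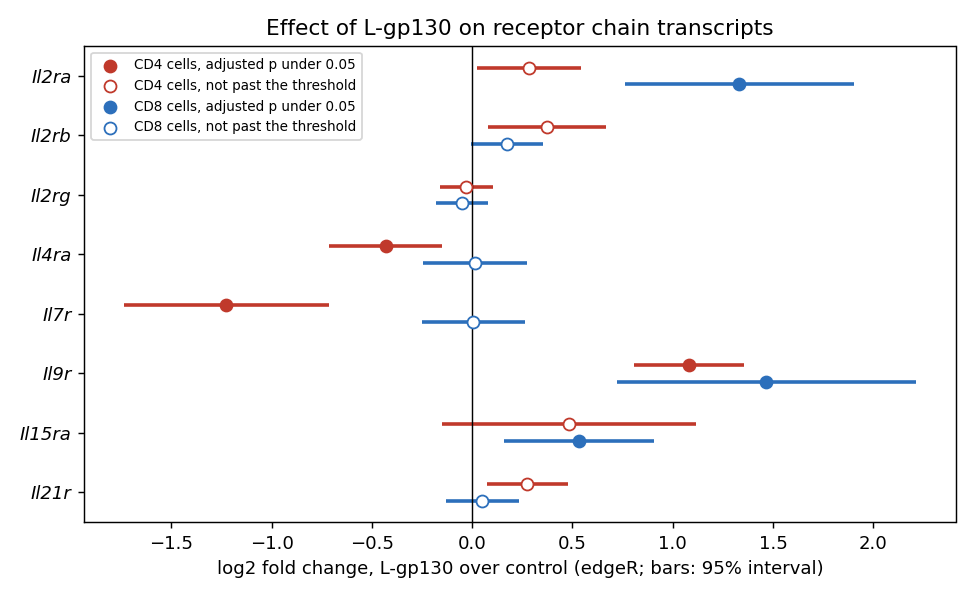
Log2 fold change of each member, L-gp130 over control, from the edgeR fits in CD4 (red) and CD8 (blue) cells, with 95% intervals; filled points have an adjusted p under 0.05. Il7r lay at -1.23 in CD4 and 0.01 in CD8 cells, Il2ra at 0.28 and 1.33, and Il9r above 1 in both.

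Marker levels moved in CD8 cells too, where 10.5% of all genes tested were called in each direction. Both CD8 lineage markers fell, Cd8a by 0.36 and Cd8b1 by 0.67 on the log2 scale, and their summed level was 1338 to 1579 CPM in L-gp130 against 1781 to 2367 CPM in control libraries. Of 6 general T cell markers 4 were also lower (Cd3d, Cd3g, Cd247 and Cd2), at 2112 to 2308 against 2516 to 2729 CPM without overlap. Of 8 naive markers 6 were lower, and of 8 effector and memory markers 7 were higher and 1 lower. Of 10 regulatory T cell markers 5 were higher and 1 lower, at 260 to 289 against 164 to 177 CPM. Foxp3, the regulator that defines those cells, stood at 6.46, 8.71 and 7.44 CPM against 1.54 to 3.90 CPM (log2 fold change 1.63 ± 0.25, edgeR adjusted p = 0.00177). None of the 3 CD4 lineage markers was called, at 36.5 to 49.8 against 27.5 to 48.7 CPM. The part of regulatory T cells and other CD4+ cells in the Il2ra and Il9r values was not tested.

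On the log2 scale, the effect of L-gp130 differed between the cell types for 2 of the 8 members. Both effects were lower in CD4 than in CD8 cells on that scale. An edgeR test of the interaction of cell type and genotype across all 21 libraries was used. Of the 15758 genes tested, 3.46% were called (1.83% higher, 1.62% lower). For Il2ra the log2 effect in CD4 minus that in CD8 cells was -1.08 ± 0.22 (edgeR adjusted p = 0.00863): joint-fit means went from 69.7 to 86.9 CPM in CD4 and from 6.37 to 17.6 CPM in CD8 cells. For Il7r it was -1.18 ± 0.29 (edgeR adjusted p = 0.0280), with means going from 473 to 199 CPM in CD4 and from 597 to 616 CPM in CD8 cells. The Il2ra difference was called in all 21 fits that left out a library. The Il7r difference was lost without L-gp130 CD4 replicate 6, control CD4 replicate 1, L-gp130 CD8 replicate 2 or 3, or control CD8 replicate 6 (Il7r edgeR adjusted p 0.0555 to 0.0850), and without control CD8 replicates 4 to 6 (edgeR adjusted p = 0.125). Il9r was called in each cell type, and the difference between its effects did not pass (-0.50, 95% interval -0.98 to -0.02, edgeR adjusted p = 0.266). Nor did that of Il4ra (-0.41, 95% interval -0.77 to -0.04, edgeR adjusted p = 0.233). The other 4 members had edgeR adjusted p-values from 0.371 (Il21r) to 0.994 (Il15ra).

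Splicing of the members was compared as the share of a gene's TPM held by its most abundant transcript. No share passed an exact permutation test after adjustment over 16 comparisons. With 3 against 6 CD8 libraries the smallest p is 0.0119, so a CD8 share could have passed only together with others (4 shares at that value or lower). The lowest unadjusted value came from Il2ra-201, which held 91.5 ± 2.73% of Il2ra in L-gp130 and 87.6 ± 0.403% in control CD4 cells (exact 2-sided permutation p = 0.0152, adjusted p = 0.242, n = 6 each). Il7r-201 held 81.8 to 86.6% of Il7r in L-gp130 and 81.0 to 84.2% in control CD4 libraries, and is annotated as protein coding. For Il4ra the leading form was Il4ra-205, annotated for nonsense-mediated decay, with 67.4 ± 2.52% in control and 65.7 ± 3.53% in L-gp130 CD4 cells.

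Apart from Il21 in L-gp130 CD4 cells, the ligands of these receptors were low in the same cells (at most 6.01 CPM in any library). Il21, made by helper T cells, stood at 15.8 to 25.7 CPM in L-gp130 CD4 libraries against 0.778 to 3.04 CPM in controls, with no overlap (log2 fold change 3.74 ± 0.32, edgeR adjusted p = 1.22e-05). Il2, the T cell growth factor, stood at 1.82 to 3.75 against 0.548 to 1.03 CPM (1.73 ± 0.28, edgeR adjusted p = 0.00109). Il4 stood at 1.46 to 3.14 against 0.519 to 1.03 CPM (1.17 ± 0.33, edgeR adjusted p = 0.0253). These 3 of the 4 ligands tested rose in CD4 cells without overlap. Of all genes tested there, 11.1% were called higher and 7.68% lay higher without overlap. Il15 did not pass (-0.38 ± 0.70, edgeR adjusted p = 0.742). In CD8 cells 2 of 3 tested rose, Il21 from 0 to 0.111 CPM up to 0.801 to 1.92 CPM (edgeR adjusted p = 0.000603) and Il4 from 0.110 to 0.669 CPM up to 0.915 to 1.67 CPM (edgeR adjusted p = 0.00740), and Il15 did not pass (edgeR adjusted p = 0.155). Il7, Il9 and Tslp did not pass the filter on low counts in either cell type.

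Over the 48 other genes of the pathway, 15 of 44 tested were higher and 7 lower in L-gp130 CD4 cells (median log2 fold change 0.07). In CD8 cells 15 of 43 were higher and 6 lower (median 0.24). Of all genes tested, 11.1% were higher and 7.75% lower in CD4 cells, and 10.5% in each direction in CD8 cells. These shares also stand beside the counts of each list below. The lists were chosen with earlier results known, and no list was tested as a set. Jak3, the kinase held by the shared chain, stood at 449 to 613 CPM in L-gp130 and 184 to 222 CPM in control CD4 libraries (log2 fold change 1.44 ± 0.09, edgeR adjusted p = 8.36e-07). It stood at 598, 610 and 651 CPM against 211 to 264 CPM in CD8 libraries (1.39 ± 0.07, edgeR adjusted p = 2.81e-06). Neither pair of groups overlapped, and Jak3 had the smallest adjusted p of the 48 genes in both cell types, whereas Il2rg did not pass in either.

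**Figure D4:**
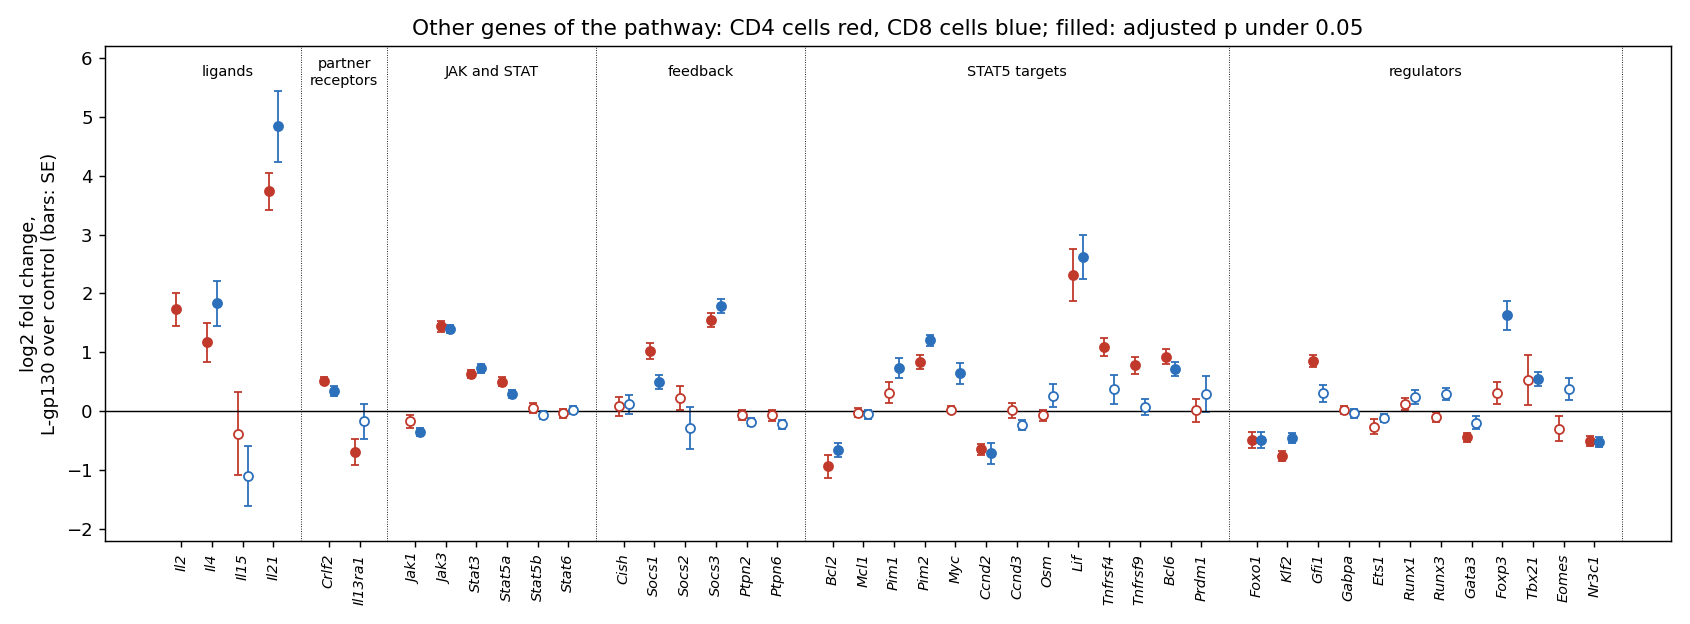
Log2 fold change (L-gp130 over control, bars SE) of other pathway genes that passed the filter, by list, in CD4 (red) and CD8 (blue) cells; filled points have an edgeR adjusted p under 0.05. Il21 rose by 3.74 and 4.84, Jak3 by 1.44 and 1.39, and Klf2 fell by 0.76 and 0.45. The CD8 value of Il21 rests on control libraries near the floor (0 to 0.111 CPM), so its size is uncertain.

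Among the kinases and STAT factors, 3 of 7 were higher in CD4 cells (Jak3, Stat3 and Stat5a) and none lower. In CD8 cells the higher genes had the same names, and Jak1, which sits on the private chains, was lower (-0.35 ± 0.06, edgeR adjusted p = 0.00392; 868, 986 and 962 against 1132 to 1283 CPM). Stat5b and Stat6 did not pass in either. Stat5a and Jak1 fall outside the naming rule and were picked after their values were seen. Of 6 feedback inhibitors, Socs1 and Socs3 were higher in both cell types. Socs3, which damps gp130 signals, rose by 1.55 ± 0.12 (edgeR adjusted p = 4.02e-06) and 1.79 ± 0.12 (edgeR adjusted p = 1.23e-05). Cish, a classical STAT5 target, did not pass in CD4 (0.08 ± 0.16) or CD8 cells (0.12 ± 0.16), and it also falls outside the naming rule.

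Of 13 genes listed as STAT5 targets, 5 were higher and 2 lower in each cell type, and the members that moved were mixed. Pim2, a survival kinase, rose by 0.84 ± 0.12 in CD4 (edgeR adjusted p = 0.000421) and 1.20 ± 0.09 in CD8 cells (edgeR adjusted p = 2.88e-05). Lif, an interleukin-6 family cytokine, rose by 2.31 ± 0.44 (edgeR adjusted p = 0.00391) and 2.63 ± 0.37 (edgeR adjusted p = 0.00117). Bcl2, a survival factor kept up by interleukin-7, and Ccnd2, a cyclin, were the 2 lower genes. Bcl2 stood at 66.4 to 170 against 187 to 242 CPM in CD4 libraries (-0.94 ± 0.20, edgeR adjusted p = 0.00759) and at 170, 193 and 151 against 225 to 296 CPM in CD8 libraries (-0.66 ± 0.11, edgeR adjusted p = 0.00285). Bcl2 and Ccnd2 were also picked after their values were seen.

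Among 12 factors known to act on the receptor genes, 1 was higher (Gfi1) and 4 lower (Foxo1, Klf2, Gata3 and Nr3c1) in CD4 cells. In CD8 cells 2 were higher (Foxp3 and Tbx21) and 3 lower (Foxo1, Klf2 and Nr3c1). Factors not named for a cell type, such as Gabpa, Ets1 and Runx1, were not called there. Foxo1 and Klf2 belong to the resting T cell programme, in which FOXO1 drives Il7r, and Gfi1 represses Il7r. Klf2 stood at 277 to 387 against 519 to 622 CPM in CD4 libraries (-0.76 ± 0.09, edgeR adjusted p = 0.000111). Gfi1 stood at 29.3 to 36.9 against 16.2 to 21.9 CPM (0.85 ± 0.10, edgeR adjusted p = 0.000125). The groups of both genes were apart. In CD8 cells Gfi1 did not pass (0.31 ± 0.14, edgeR adjusted p = 0.157) and Klf2 was lower (-0.45 ± 0.09, edgeR adjusted p = 0.00550). Foxo1, picked after its values were seen, was lower in CD4 (-0.49 ± 0.14, edgeR adjusted p = 0.0326) and CD8 cells (-0.48 ± 0.13, edgeR adjusted p = 0.0295). For the difference between the cell types, Gfi1 had an edgeR adjusted p of 0.0510 and Foxo1 of 0.991. The part of these factors in the receptor values, Il7r included, was not tested.

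Of the 2 partner chains tested, 1 was higher and 1 lower in CD4 cells, and 1 was higher and 0 lower in CD8 cells. Il13ra1 was the lower one in CD4 cells, at 4.54 to 9.42 against 6.90 to 10.8 CPM with overlap. Crlf2, which joins Il7r in the receptor for thymic stromal lymphopoietin, was higher in both cell types. It stood at 69.9 to 89.4 against 49.1 to 53.0 CPM in CD4 libraries (0.52 ± 0.06, edgeR adjusted p = 0.000152) and at 59.5, 67.8 and 59.5 against 41.5 to 53.8 CPM in CD8 libraries (0.35 ± 0.09, edgeR adjusted p = 0.0165). Neither pair of groups overlapped for Crlf2. Crlf2 and Il13ra1 were picked after their values were seen.

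The genes whose pattern lay nearest to each called member were taken by the root mean square (RMS) difference of centred log2 CPM over the libraries of a cell type. In CD4 cells (12 libraries, 11350 genes compared) Vipr1 (0.25) and Ttc28 (0.27) were nearest to Il7r, and Cnp and Lamtor2 (0.14 each) to Il4ra, and Ccr6 (0.17) was among the nearest to Il9r. In CD8 cells (9 libraries, 10738 genes compared) Adam8 (0.20) and Pde4a (0.22) were nearest to Il2ra, Sdsl (0.21) to Il9r, and Zdhhc1 (0.09) and Sap18 (0.11) to Il15ra. The RMS distance is in log2 units. The libraries share their depth and genotype, and no test was made.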

How the data were processed

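Spleen CD4+ and CD8+ T cells of 21 libraries were measured by unstranded polyA RNA sequencing. Per the submitters' processing notes, the build was GRCm38 and the tools (no roles stated) included Salmon 1.5.2, Trimmomatic 0.39, cutadapt 3.4 and edgeR 3.34.1. The annotation release used upstream was not given in the sources used here. For genes, the authors deposited 1 table of estimated counts per cell type. For transcripts, each library has a deposited Salmon file with estimated counts and TPM, per the file headers. Gene names and positions came from GENCODE M21, which named 51115 of 51201 gene IDs and left 694 of 137641 transcripts unmatched (0.144% to 0.209% of reads).

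The rounded estimated counts entered edgeR 4.0.16 (R 4.3.3), each cell type by itself, with genotype and the labelled sex as terms, filterByExpr, TMM and the robust 2-sided quasi-likelihood F test. Benjamini-Hochberg adjustment ran over all genes tested, with calls under 0.05. Such gene counts can be scaled within a table, so tests across cell types used reads per transcript summed per gene, in 1 model over all libraries. Fold changes are L-gp130 over control, levels are CPM, and a standard error (SE) is the log2 fold change, unsigned, divided by the root of F. TPM summed per gene was used to compare genes and for transcript shares. Settings were tested on simulated data. P-values measure the spread between the numbered mice of each group. Estimated counts are not independent molecules, so depth limits the low members (Il9r and Il2ra in CD8 cells) most. Alternatives covered normalisation, the test (DESeq2 1.42.0, limma 3.58.1 voom), filters, sex, depth, the replicate block and left-out libraries.

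The members and gene lists were chosen with earlier results of these data known. Named are the 8 members, tested ligands, up to 6 called pathway genes per comparison with the smallest adjusted p, and the 2 genes nearest in pattern to each called member. Some genes under this rule or in the lists are not reported here. For those distances, 0.5 CPM was added before taking log2, and genes with a mean log2 CPM under 1 were left out.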

Additional observations from a re-analysis of the deposited data

Results flagged for a closer look

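Of 24 groups of member levels examined for a library far from the others, 3 held one, and chance alone marks about 1 in 20 such groups. Il7r stood at 865 CPM in control CD8 replicate 3, with the next library at 598 CPM. Il9r stood at 42.4 CPM in L-gp130 CD4 replicate 2, with the next at 28.8 CPM. Il15ra stood at 22.1 CPM in L-gp130 CD4 replicate 1, with the next at 10.9 CPM. That last library also had the highest summed myeloid marker level of the CD4 libraries (1570 CPM). It was likewise highest for effector and memory (1807 CPM), NK cell (223 CPM), neutrophil (224 CPM), dendritic cell (248 CPM) and CD8 lineage markers (128 CPM). The part of such cells in the Il15ra value was not tested.

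The effect of L-gp130 differed between CD4 and CD8 cells, by edgeR's test of the cell type by genotype term, for Il2ra (-1.08 on the log2 scale, edgeR adjusted p = 0.00863) and Il7r (-1.18, edgeR adjusted p = 0.0280) among the members. Among the other pathway genes it differed for Tnfrsf9 (0.68, edgeR adjusted p = 0.0225), which is a costimulatory receptor of activated T cells, and for Foxp3 (-1.14, edgeR adjusted p = 0.0415).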

How the results depend on the processing

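None of the members' fold changes that were called reversed its direction under any alternative. Calls of the members changed in 19 of 112 values in CD4 cells, 6 of 104 in CD8 cells, 3 of 104 for the difference between cell types and 2 of 104 between the control groups, beside those from leaving out single libraries. Il9r in CD4 cells and the Il2ra difference between cell types kept their calls in every setting run. Alternatives that use the labelled or inferred females or males alone, or drop control CD4 replicate 1 together with the sex covariate, were chosen after seeing the data.

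The members called higher in CD4 cells (1) became 3 with DESeq2, 3 without the sex covariate, 3 without L-gp130 replicate 1 and control replicate 5, and 2 with the sex read from the libraries, with Salmon reads, in either choice of females, and without control replicate 1 and the covariate. The members called lower (2) became 1 in the labelled females and 0 in the females by reads, and 1 without the sex covariate, with the sex read from the libraries, without L-gp130 replicate 1 and control replicate 5, and without control replicate 1 and the covariate. Genes called lower (1163) became 1776 without the sex covariate. In CD8 cells the members called higher (3) became 1 without control replicates 4 to 6 and 1 in the labelled males, where 927 genes were higher and 813 lower (1495 and 1501). For the difference between cell types, genes called higher and lower (289 and 256) became 478 and 477 with DESeq2, 464 and 424 without L-gp130 CD4 replicate 1 and control CD4 replicate 5, and 434 and 404 without control CD8 replicates 1 to 3. Those higher became 148 without a filter, 165 with the gene tables joined and 125 without control CD8 replicates 4 to 6, and the members lower (2) became 1 without a filter and without those 3 libraries. Between the controls, the members lower (1) became 2 with limma-voom, by adding Il7r. The causes were not tested.

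Leaving out each library in turn gave 825 to 1986 genes higher and 562 to 1656 lower in CD4 cells (members 1 to 3 higher, 0 to 2 lower), and 762 to 1480 higher and 612 to 1487 lower in CD8 cells (members 1 to 3 higher). For the difference between cell types it gave 103 to 575 higher and 133 to 409 lower (members 1 to 2 lower), between the controls 1 to 2 members lower, and for transcript shares 0 to 1 called.

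Within a cell type, L-gp130 and control libraries with the same replicate number did not deviate together (correlations from -0.26 to 0.20 in CD4 and -0.04 to 0.20 in CD8 cells). The numbers were therefore not taken as pairs of the 2 genotypes. By label the controls were 1 male and 5 females in CD4 and 4 males and 2 females in CD8 cells. Not every same-numbered pair of control CD4 and CD8 libraries can therefore be from 1 mouse. Whether any CD4 and CD8 libraries of the same genotype and number came from the same mouse was not examined further. Outside the replicate block, the joint fit treated all 21 libraries as independent. With the replicate block, 1 member was lower in CD4 cells (Il4ra lost, edgeR adjusted p = 0.0554), Il15ra was lost in CD8 cells (edgeR adjusted p = 0.211), and 135 genes were higher and 133 lower for the difference between cell types, where 1 member was lower (Il7r -0.94, edgeR adjusted p = 0.0982). Between the controls 2 members were lower under the block. Depth limits Il9r and Il2ra in CD8 cells most, and 3 L-gp130 CD8 libraries limit the precision there.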
